A study of Rattus norvegicus with 6 samples.

Results

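Mitochondrial beta-oxidation breaks fatty acids into acetyl-CoA inside mitochondria, and 10 of its genes are described here in rat muscle under 3 protein sources. The genes are Cpt1b, Slc25a20 and Cpt2, which carry long-chain fatty acids into the matrix, Acadvl, Acadl, Acadm, Hadha, Hadhb and Hadh, which act in the reaction spiral, and Etfdh, which passes the electrons on. They were chosen by gene symbol, with 1 row per symbol of the deposited table, the one with the highest mean over all arrays. All 10 were measured, among 14506 genes with a single symbol.

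RNA of gastrocnemius muscle, a calf muscle of mixed fibre types, was measured on 6 Affymetrix Rat Gene 1.0 ST arrays, which probe the whole length of each transcript, with 2 arrays per diet. All animals were male Sprague-Dawley rats with diet-induced obesity, aged 12 weeks at the start of the diets and 20 weeks at sampling, with 8 weeks of free feeding between. Every diet was high in fat and sucrose, held 4.6 kcal/g and gave 10% of its energy as protein. The protein of the leucine diet was casein (7.1% of energy) and leucine (2.9%), that of the dairy diet was complete dairy (skim milk powder), and that of the casein diet, the control, was casein alone. Although 4 rats per diet are given for the design, no label says which rat or rats an array represents, so the p-values measure only the spread between these samples, which may be technical.

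In muscle, long-chain fatty acids are joined to carnitine at the outer mitochondrial membrane by the enzyme that Cpt1b encodes, which is inhibited by malonyl-CoA. They cross the inner membrane on the carrier encoded by Slc25a20 and are turned back into acyl-CoA by the Cpt2 enzyme. Each turn of the spiral then oxidises, hydrates, oxidises again and cleaves the chain, and Etfdh hands electrons of the first step to the respiratory chain. Many of these genes are known targets of the PPAR nuclear receptors, which respond to fatty acids.

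The values are log2 signals, so that a difference of 1 is a doubling of signal. The median over all rows lay between 3.46 and 3.56 on every array. The second casein array stood apart from the rest, with a mean correlation of 0.974 with the other arrays over all genes, against 0.985 to 0.988 for the others. It was also the lowest of the 6 arrays for all 10 beta-oxidation genes, which was so for 22.1% of all genes tested, and each comparison with casein is therefore given with and without it. The labels name gastrocnemius for every array while the protocol texts mention liver in the storage and extraction steps, and markers of both are given with the results.

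The short stretch of DNA between Hadha and Hadhb is shown because the genes for the 2 subunits of the trifunctional protein lie head to head and share it as their upstream side. It fills all 243 bases between them, and those upstream of Etfdh and Acadvl are set beside it because these were the members with the largest leucine difference and with the widest gap between the casein arrays. All come from RefSeq's rat assembly GRCr8, and capitals mark a GC box (GGGCGG) or a nuclear receptor half-site (AGGTCA) on either strand. The Hadha sequence is chr6:31907558-31907800, plus strand, the Etfdh sequence is chr2:167060759-167061008, minus strand, and the Acadvl sequence is chr10:55236787-55236955, minus strand.
Hadha and Hadhb: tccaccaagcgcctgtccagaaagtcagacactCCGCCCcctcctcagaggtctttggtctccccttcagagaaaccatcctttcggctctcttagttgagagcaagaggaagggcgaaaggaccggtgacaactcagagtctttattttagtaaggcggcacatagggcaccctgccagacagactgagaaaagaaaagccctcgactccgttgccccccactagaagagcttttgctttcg
Etfdh: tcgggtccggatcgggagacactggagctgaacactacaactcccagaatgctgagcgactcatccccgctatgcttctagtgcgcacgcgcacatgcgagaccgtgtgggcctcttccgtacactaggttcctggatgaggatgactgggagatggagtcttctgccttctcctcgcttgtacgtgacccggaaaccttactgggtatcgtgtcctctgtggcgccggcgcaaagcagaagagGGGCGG
Acadvl: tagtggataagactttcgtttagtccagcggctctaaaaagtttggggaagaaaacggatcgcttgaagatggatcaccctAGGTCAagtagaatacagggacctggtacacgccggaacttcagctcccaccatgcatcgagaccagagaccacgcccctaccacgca
The stretch between Hadha and Hadhb held 1 GC box and no half-site, as did the 250 bases before Etfdh. The Hadhb promoter searched below also held GC boxes and a half-site that lie outside the 243 bases printed. The 169 bases before the outer end of the annotated span of Acadvl held 1 half-site and no GC box. A further half-site, at -17 to -12 from the start used for the Acadvl promoter, lay outside the printed stretch.

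Among the carnitine shuttle genes, Slc25a20 was higher on both leucine arrays than on the others, while Cpt1b differed little outside the second casein array. Slc25a20, the carnitine-acylcarnitine carrier, had log2 signals of 9.51 and 9.45 on the leucine arrays, 8.75 and 9.21 on the dairy arrays, and 9.12 and 8.21 on the casein arrays. Cpt2, the inner membrane transferase, had 8.13 and 7.85 on the leucine arrays, 7.27 and 7.98 on the dairy arrays, and 7.64 and 6.87 on the casein arrays. For Cpt2 the second dairy array lay between the leucine arrays, so that leucine and dairy overlapped. Cpt1b, the muscle form of the outer membrane transferase, had 9.34 and 9.33 on the leucine arrays, 9.25 and 9.34 on the dairy arrays, and 9.40 and 8.61 on the casein arrays. Leaving out the second casein array, the remaining 5 Cpt1b values spanned 0.14, the narrowest of the 10 genes, and the first casein array was the highest.

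The leucine-minus-casein difference was 0.81 ± 0.35 for Slc25a20, 0.74 ± 0.37 for Cpt2 and 0.33 ± 0.27 for Cpt1b (log2, SE, n = 2 arrays each). None passed the test, with limma p-values adjusted by Benjamini-Hochberg over all genes of 0.57 for Slc25a20, 0.631 for Cpt2 and 0.69 for Cpt1b. Leaving that second casein array out gave 0.36 ± 0.24 for Slc25a20, 0.35 ± 0.39 for Cpt2 and -0.062 ± 0.061 for Cpt1b.

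The acyl-CoA dehydrogenases, which catalyse the first step on chains of different length, divided into Acadl and Acadm on the one side and Acadvl on the other. Acadl, the long-chain enzyme, had log2 signals of 10.00 and 9.96 on the leucine arrays, 9.19 and 9.61 on the dairy arrays, and 9.60 and 8.92 on the casein arrays. Acadm, the medium-chain enzyme, had 10.88 and 11.01 on the leucine arrays, 10.30 and 10.76 on the dairy arrays, and 10.70 and 9.95 on the casein arrays. Both leucine arrays were above the other 4 for these 2 genes. Acadvl, the very-long-chain enzyme, had 9.39 and 9.17 on the leucine arrays, 8.98 and 9.02 on the dairy arrays, and 9.47 and 7.82 on the casein arrays. Its highest and lowest values were thus both from casein, 1.65 apart, the widest gap between arrays of a diet among the 10 genes.

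Against casein the leucine difference was 0.72 ± 0.28 for Acadl (limma, adjusted p = 0.531), 0.63 ± 0.31 for Acadm (adjusted p = 0.623) and 0.64 ± 0.57 for Acadvl (adjusted p = 0.702). On the 5 arrays without the second casein array it was 0.39 ± 0.22 for Acadl, 0.25 ± 0.25 for Acadm and -0.19 ± 0.12 for Acadvl. The sign of the Acadvl difference therefore depended on that array.

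Hadha and Hadhb, which encode the alpha and beta subunits of the trifunctional protein that carries out the last 3 steps on long chains, were both higher on the leucine arrays than on any other array. Hadha had log2 signals of 10.51 and 10.09 on the leucine arrays, 9.71 and 9.86 on the dairy arrays, and 9.95 and 8.98 on the casein arrays. Hadhb had 10.49 and 10.40 on the leucine arrays, 9.71 and 9.95 on the dairy arrays, and 10.01 and 9.57 on the casein arrays. The casein arrays differed by 0.44 in Hadhb, the smallest gap of the 10 genes, and by 0.98 in Hadha.

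Hadhb had the smallest p of the 10 genes for leucine against casein, 0.66 ± 0.18, a 1.58-fold difference with a 95% confidence interval of 0.17 to 1.15 (log2), but it did not pass after adjustment over all genes (limma, adjusted p = 0.414). It was 0.44 ± 0.14 without the second casein array (adjusted p = 0.375). For Hadha the leucine-minus-casein difference was 0.84 ± 0.37 (adjusted p = 0.578), and 0.35 ± 0.23 without that array. The genes that share the 243 bases printed above had a correlation of 0.904 over the 6 arrays, below the median of 0.924 over the 45 pairs of members. Over the 5 without the second casein array it was 0.917, against a median of 0.846, and Hadhb was then closer to Acadl, at 0.977.

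Hadh, the dehydrogenase of the third step for medium and short chains, had log2 signals of 10.18 and 9.91 on the leucine arrays, 9.24 and 9.84 on the dairy arrays, and 9.65 and 8.96 on the casein arrays. Both leucine arrays were above the other 4, the lower leucine array by a small margin over the second dairy array. The leucine-minus-casein difference of Hadh was 0.74 ± 0.33 (adjusted p = 0.582), and 0.39 ± 0.34 without the second casein array.

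Etfdh, the electron transfer flavoprotein dehydrogenase that passes electrons from the acyl-CoA dehydrogenases to ubiquinone, had the largest leucine difference of the 10 genes. Its log2 signals were 9.37 and 9.26 on the leucine arrays, 8.32 and 9.04 on the dairy arrays, and 8.55 and 7.88 on the casein arrays. Both leucine arrays were above the other 4, and the dairy arrays lay on either side of the first casein array. Against casein the leucine difference was 1.10 ± 0.34, or 2.15-fold, with a 95% confidence interval of 0.18 to 2.02 (log2) and an adjusted p of 0.454 in limma's test. With the second casein array left out it was 0.76 ± 0.37 (adjusted p = 0.543), and it stayed the largest of the 10.

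**Figure D1:**
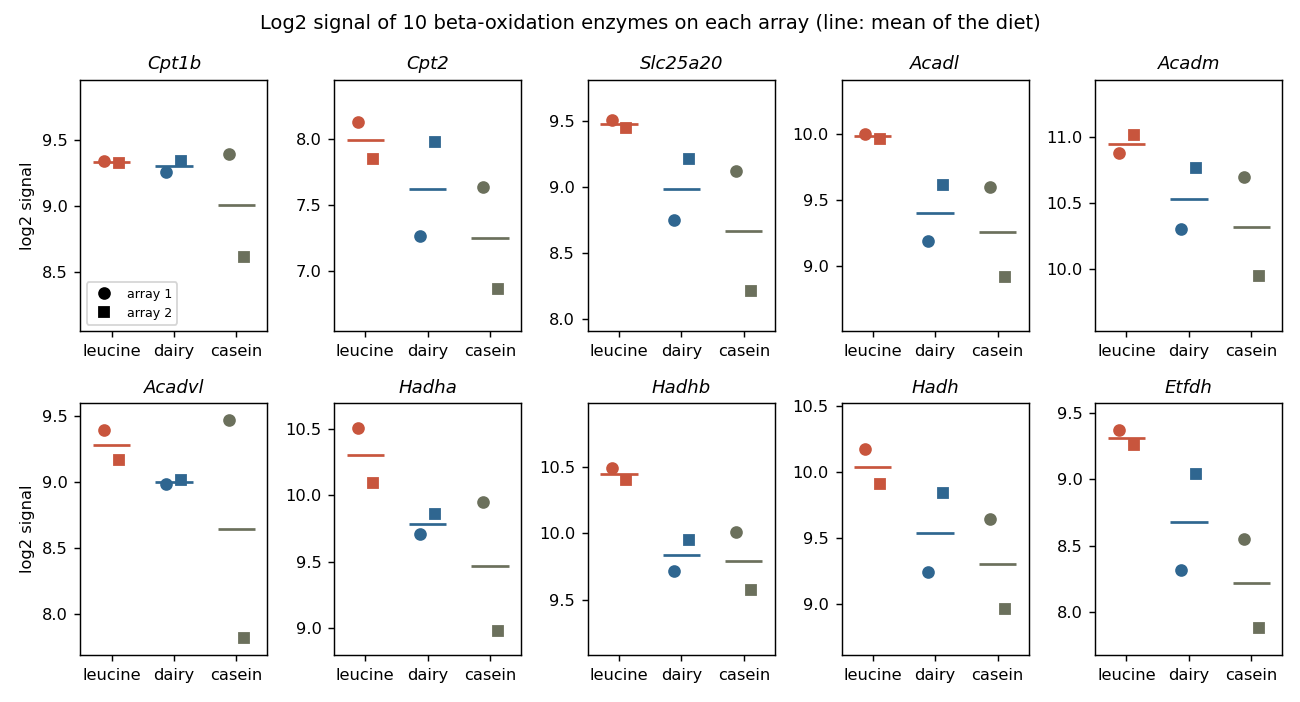
Log2 signal of each of the 10 beta-oxidation genes (1 panel per gene) on every array, with leucine, dairy and casein from left to right. Points are single arrays and horizontal lines the means of the 2 arrays of a diet; the second casein array is the lowest point in every panel.

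Leucine against casein asked whether free leucine in place of part of the casein altered muscle gene expression. None of the 10 genes passed the adjusted threshold of 0.05, nor did any of all 14506 genes (0% called), although 1394 genes had an unadjusted limma p under 0.05. Hadhb and Etfdh were the members with an unadjusted p under 0.05, both higher, against 4.76% of all genes called higher in that way and 4.85% called lower. All 10 differences were above 0, against 49.1% of all genes, and their median was 0.73 (1.66-fold), beside 0.00 over all genes. For 8 of the 10, all but Cpt1b and Acadvl, both leucine arrays were above both casein arrays, which was so for 15.9% of all genes.

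The second casein array moved these values. Without it 8 of the 10 differences were above 0, against 47.4% of all genes, the median was 0.36 (1.28-fold), and Hadhb was the member with an unadjusted p under 0.05, against 6.31% of all genes called higher. The same 8 genes had both leucine arrays above the first casein array, against 30.1% of all genes, and Cpt1b and Acadvl had both below it, against 31.4%. With only the second casein array the median was 1.10, and 8 genes had an unadjusted p under 0.05, against 9.01% of all genes called higher. On the same 5 arrays 3 of the dairy-minus-casein differences had one, against 7.76% of all genes called higher.

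Dairy against casein asked the same of complete dairy protein in place of casein, and here the direction of the 10 genes rested on the second casein array. All 10 differences were above 0 with both casein arrays, against 51.2% of all genes, with a median of 0.30 (1.23-fold), beside 0.003 over all genes. They were between 0.045 ± 0.18 for Hadhb and 0.46 ± 0.34 for Etfdh. None had an unadjusted p under 0.05, against 2.49% of all genes called higher and 2.31% called lower, and the adjusted p-values were 0.833 or above. Of all genes 696 had an unadjusted limma p under 0.05 and none passed after adjustment (0%). None of the 10 had its dairy arrays wholly above or wholly below its casein arrays, against 11.5% and 11.7% of all genes.

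On the 5 arrays that leave out the second casein array 9 of the 10 dairy differences were below 0, with a median of -0.15, and 1 was above 0, against 47.9% of all genes. The exception was Etfdh, at 0.12 ± 0.37. Acadvl, at -0.47 ± 0.12, was the member with an unadjusted p under 0.05 (adjusted p = 0.447), against 5.09% of all genes called lower. Cpt1b, Acadvl, Hadha and Hadhb had both dairy arrays below the first casein array, against 26.7% of all genes.

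The dairy arrays also differed from each other. The first was below the second for all 10 genes, against 42.1% of all genes, and below the first casein array for all 10, against 42% of all genes. The second dairy array was above the first casein array for 6 of the 10, also against 42% of all genes. The gap between the dairy arrays was between 0.035 for Acadvl and 0.72 for Etfdh.

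Leucine against dairy, which shares the leucine arrays with the first comparison, does not take its differences from the casein arrays. All 10 differences were above 0, against 49% of all genes, with a median of 0.50 (1.41-fold), beside 0.00 over all genes. For 8 genes both leucine arrays were above both dairy arrays, against 13.4% of all genes, and the exceptions were Cpt1b and Cpt2. Hadhb had the smallest p, with a difference of 0.61 ± 0.18 (1.53-fold, adjusted p = 0.768), and was the member with an unadjusted p under 0.05, against 2.25% of all genes called higher and 3.45% called lower. The difference of Etfdh was 0.64 ± 0.34 (adjusted p = 0.903), the largest of the 10, and that of Cpt1b, the smallest, was 0.036 ± 0.27 (adjusted p = 1). These sizes rested on the first dairy array. With it left out the median of the 10 was 0.27, Etfdh was at 0.28 and Hadhb, then the largest, at 0.50, while the median was 0.73 without the second dairy array. None passed the adjusted threshold, and across all genes none did while 827 had an unadjusted limma p under 0.05.

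Since the casein arrays enter this comparison only through the shared estimate of spread, leaving out the second one kept every difference and narrowed its error. Hadhb was then 0.61 ± 0.11 (adjusted p = 0.537) and Acadl 0.58 ± 0.18 (adjusted p = 0.656), which made 2 members with an unadjusted p under 0.05, against 3.08% of all genes called higher. Over the 3 diets together limma's moderated F test gave Hadhb an adjusted p of 0.64, and Hadhb was the member with an unadjusted p under 0.05, against 7.25% of all genes. On the 5 arrays without the second casein array it was so again, with an adjusted p of 0.401, against 10.9% of all genes. An exact permutation test of 2 arrays against 2 cannot give a two-sided p below 0.333.

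**Figure D2:**
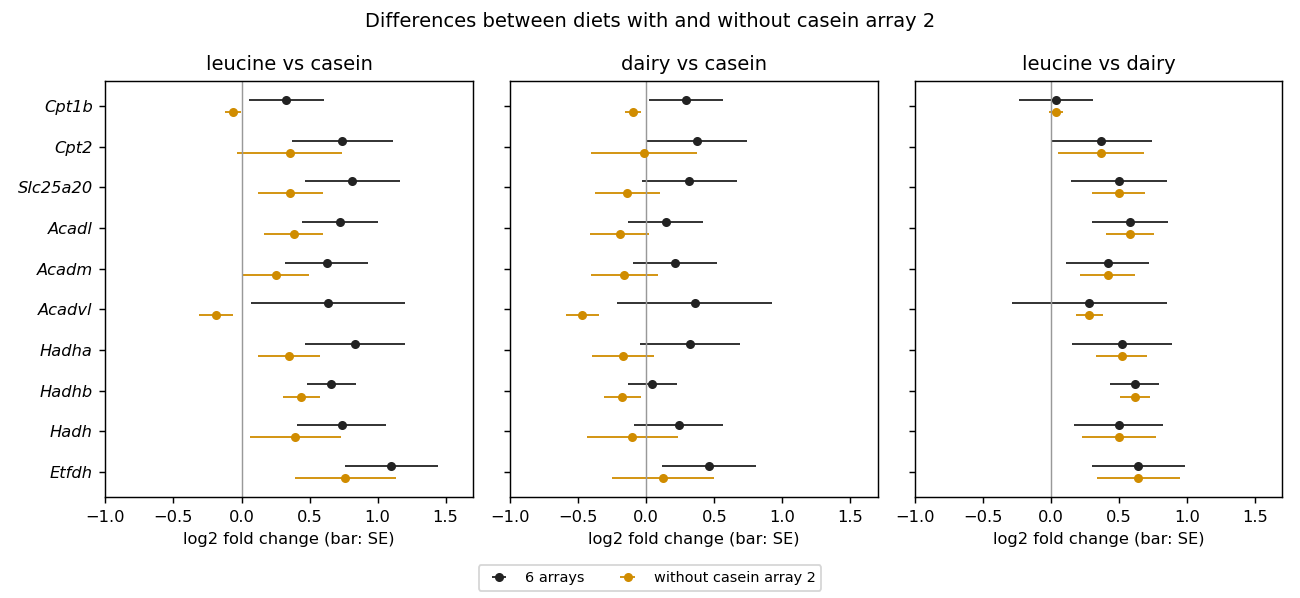
Log2 difference of each gene for leucine minus casein, dairy minus casein and leucine minus dairy (panels from left to right, log2 fold change on the horizontal axis), fitted on 6 arrays and on 5 without the second casein array. Bars are the standard errors of the limma model; in the dairy-minus-casein panel 9 of the 10 points move across 0 when that array is left out.

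Across arrays the 10 genes varied together. For 7 of them, all but Cpt1b, Cpt2 and Acadvl, both leucine arrays were above the other 4, against 7.89% of all genes, and above the other 3 without the second casein array, against 9.5%. The first leucine array was the highest of the 6 for 7 genes, against 16.6% of all genes. Each gene centred on its own mean, the average of the 10 genes was 0.46 and 0.32 on the leucine arrays, -0.25 and 0.14 on the dairy arrays, and 0.084 and -0.75 on the casein arrays. The first dairy array was thus the second lowest, and it was the lowest of the 5 without the second casein array for all 10 genes, against 17.5% of all genes.

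Over 6 arrays the correlations between members, 45 pairs in all, were between 0.645 and 0.987, with a median of 0.924. All share the low second casein array, and without it they were between 0.221 and 0.993, with a median of 0.846 and 9 pairs below 0.5. Cpt1b and Acadvl, the genes with the highest value on the first casein array, were closest to each other in both cases, at 0.972 over 6 arrays and 0.764 over 5.

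The genes whose values were most like the mean of the 10, among 1820 genes above the median level and at least as variable, were Acot2 with a correlation of 0.990, Fabp3 with 0.989, Plin5 and Nceh1 with 0.984 each, and Cd36 with 0.983, over 6 arrays. Acot2 is a mitochondrial acyl-CoA thioesterase, Fabp3 the muscle fatty acid-binding protein, Plin5 a lipid droplet coat protein, Nceh1 a neutral cholesterol ester hydrolase and Cd36 a fatty acid transporter. Fabp3 had log2 signals of 10.79 and 10.69 on the leucine arrays, 9.25 and 10.45 on the dairy arrays, and 9.94 and 7.84 on the casein arrays. Like the 10 genes it was lowest on the second casein array and next lowest on the first dairy array.

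Without the second casein array, among 6865 genes, the closest over the 5 arrays were Slc35c1 with a correlation of 0.997, Nceh1 with 0.996, Ndufb5 with 0.994, Flt1 with 0.990 and Mkrn2 with 0.989. Ndufb5 is a subunit of respiratory complex I and Flt1 a receptor for vascular endothelial growth factor. More genes were eligible here because Cpt1b, the least variable member, hardly varied over these 5 arrays. The SD over them was 0.058 for Mkrn2, 0.143 for Ndufb5, 0.213 for Slc35c1, 0.251 for Flt1 and 0.373 for Nceh1. No test was made of these correlations. Of the 5 genes named over 6 arrays, Nceh1 was again among the first 5, Acot2 ranked 20, Plin5 24, Fabp3 25 and Cd36 55.

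**Figure D3:**
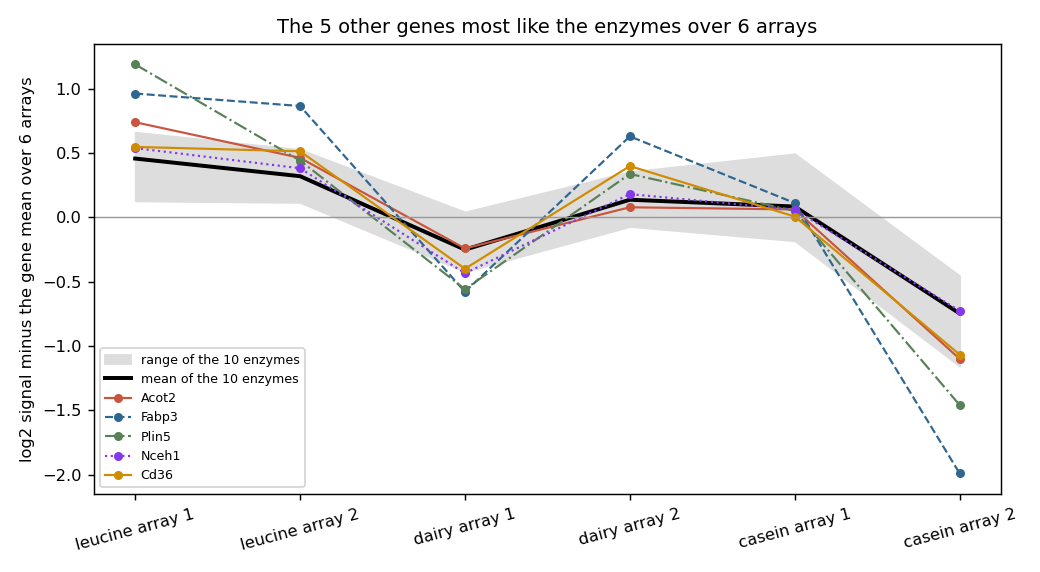
Log2 signal minus the gene's own mean on each array for the mean of the 10 beta-oxidation genes and for the genes most like it over 6 arrays, from leucine to casein. The grey band is the range of the 10 genes, and all lines are lowest on the second casein array, where the mean of the 10 is -0.75.

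The enzymes and regulators around the 10 genes were read from the same fit, and none of the 71 measured of 81 listed passed the adjusted threshold in the comparisons of diets. The muscle targets of PPAR outside beta-oxidation, 10 of 11 measured, were higher with leucine than with casein in all 10, against 49.1% of all genes, with a median of 0.96 and 2 at an unadjusted p under 0.05, against 4.76% of all genes called higher. Those were Lpl, the lipoprotein lipase, at 1.17 ± 0.24 (adjusted p = 0.366), and Pdk4, the kinase that restrains pyruvate dehydrogenase, at 1.43 ± 0.32 (adjusted p = 0.387). Without the second casein array all 10 were still above 0, against 47.4% of all genes, with a median of 0.65, Lpl at 1.06 ± 0.34 and Pdk4 at 1.25 ± 0.44. The smallest difference, that of Fabp4, was near 0, at 0.043 with both casein arrays and 0.007 without the second. Acot1 was dim, with log2 signals between 1.74 and 2.14, where the lowest deposited value was 1.14.

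Pdk4 had log2 signals of 11.69 and 11.40 on the leucine arrays, 10.44 and 11.27 on the dairy arrays, and 10.29 and 9.94 on the casein arrays, so that its casein arrays lay closer together than its dairy arrays. Against casein the dairy difference of these PPAR targets had a median of 0.41, and of 0.11 without the second casein array. Against dairy the leucine difference had a median of 0.59, with 9 of 10 above 0, against 49% of all genes.

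Ppara, the PPAR receptor best known for fatty acid oxidation genes, had log2 signals of 6.26 and 5.74 on the leucine arrays, 5.26 and 5.53 on the dairy arrays, and 5.20 and 4.74 on the casein arrays. Its leucine-minus-casein difference was 1.03 ± 0.26 (adjusted p = 0.407), and 0.80 ± 0.30 without the second casein array. Esrrg, an orphan receptor of oxidative muscle, was at 1.04 ± 0.34 (adjusted p = 0.477) and 0.71 ± 0.38 without it. These were the 2 of 13 measured regulators, of 15 listed, with an unadjusted p under 0.05, against 4.76% of all genes called higher. The median of the 13 was 0.30, and 0.016 without the second casein array. Ppargc1a, the coactivator PGC-1 alpha, had 6.92 and 6.26 on the leucine arrays, 6.12 and 6.52 on the dairy arrays, and 6.20 and 6.19 on the casein arrays. Both leucine arrays of Ppargc1a were above both casein arrays, at 0.39 ± 0.27 (adjusted p = 0.674), and the dairy arrays overlapped with both.

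The remaining enzymes of the mitochondrial spiral, 7 of 7 measured, had a leucine-minus-casein median of 0.26, all 7 above 0, against 49.1% of all genes. Without the second casein array the median was -0.054, with 3 above 0, against 47.4% of all genes. Against dairy the leucine difference of all 7 was above 0, against 49% of all genes, with a median of 0.25. The enzymes that handle unsaturated chains, Eci1, Eci2 and Decr1, had a leucine-minus-casein median of 0.92, and 0.47 without that array. Decr1, the dienoyl-CoA reductase, was at 1.10 ± 0.39 (adjusted p = 0.494), and 0.64 ± 0.33 without it.

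Etfa and Etfb, the subunits of the electron transfer flavoprotein that feeds the Etfdh enzyme, were about as high on the first casein array as on the leucine arrays. Etfdh was lower on that array than its leucine mean by 0.76. Etfa had log2 signals of 9.74 and 9.68 on the leucine arrays, 9.44 and 9.31 on the dairy arrays, and 9.67 and 8.59 on the casein arrays. Etfb had 8.21 and 8.22 on the leucine arrays, 7.93 and 7.89 on the dairy arrays, and 8.31 and 6.97 on the casein arrays. The leucine-minus-casein difference of Etfa was 0.58 ± 0.37, and 0.041 ± 0.087 without the second casein array. That of Etfb was 0.58 ± 0.46, and -0.095 ± 0.046 without it. The difference between Etfdh and its partners was not tested.

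Activation and carnitine genes, 3 of 4 measured, had a leucine-minus-casein median of 0.19, and of -0.022 without the second casein array. Among them Cpt1a, the liver form of the outer membrane transferase, had log2 signals of 4.82 and 4.63 on the leucine arrays, 4.81 and 4.81 on the dairy arrays, and 5.36 and 4.52 on the casein arrays. Its difference was -0.22 ± 0.30, and -0.64 ± 0.11 (adjusted p = 0.271) without the second casein array. The genes of malonyl-CoA control and acyl-CoA hydrolysis, 4 of 4 measured, had a median of 0.42, and of 0.027 without it.

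Peroxisomal beta-oxidation, which shortens very long chains outside mitochondria, had 9 of 13 genes measured. Their leucine-minus-casein median was 0.27 with 6 above 0, against 49.1% of all genes. Without the second casein array it was -0.13 with 3 above 0, against 47.4% of all genes. Against casein their dairy median was 0.006. Without that array it was -0.41 with none of 9 above 0, against 47.9% of all genes. The tricarboxylic acid cycle and respiratory chain, with 20 of 22 genes measured, were above 0 in all 20 for leucine against casein, against 49.1% of all genes, with a median of 0.25. Of these 20, 5 had an unadjusted p under 0.05, against 4.76% of all genes called higher. Without the second casein array their median was 0.074, with 15 above 0, against 47.4% of all genes.

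Markers of fibre types and of other cells were read on the same arrays. Slow-fibre markers, 11 of 11 measured, were all lowest on the second casein array, against 22.1% of all genes. Their summed signal (log2) was 13.6 and 13.8 with leucine, 13.2 and 13.4 with dairy, and 13.6 and 9.93 with casein. Their leucine-minus-casein median was 2.18, and 0.036 without the second casein array. Myh7, the slow myosin heavy chain, had 10.92 and 10.86 on the leucine arrays, 10.92 and 10.67 on the dairy arrays, and 11.37 and 6.07 on the casein arrays. Slow, oxidative fibres are known to hold more beta-oxidation enzymes than fast fibres, and the markers moved with the low values of the 10 genes on that array. Their part in the result was not tested, and in pieces of whole muscle fewer cells of a type and less RNA per cell cannot be told apart.

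Between the first casein array and the leucine arrays the slow-fibre sum differed by 0.27 or less, but its single markers went both ways. Their leucine-minus-casein differences on those 3 arrays lay between -0.67 and 1.16. Of the 11 markers 6 were above 0 and 5 below, where 47.4% of all genes were above 0. On the same 3 arrays the median difference of the 10 genes was 0.36. Between leucine and dairy 10 of the 11 slow-fibre differences were above 0, against 49% of all genes, with a median of 0.357. The summed fast-fibre signal (log2), over 11 of 12 markers, was 15.8 and 15.7 on the leucine arrays, 16.1 and 15.9 on the dairy arrays, and 16.0 and 15.8 on the casein arrays. Between leucine and dairy all 11 fast-fibre differences were below 0, with a median of -0.27, where 49% of all genes were above 0. Of the 11, 3 had an unadjusted limma p under 0.05, against 3.45% of all genes called lower. Between leucine and casein 10 of the 11 were below 0, with a median of -0.11, where 49.1% of all genes were above 0. Without the second casein array all 11 were below 0, with a median of -0.28, where 47.4% of all genes were above 0. The part of the slow-fibre and fast-fibre markers in the differences of the 10 genes was not tested. Fast-fibre markers of skeletal muscle were thus bright on every array.

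Hepatocyte markers, 12 of 12 measured, were all highest on the second casein array. This was so for 3262 of all 14506 genes, a count that can include ties. Their leucine-minus-casein median was -1.31, with all 12 below 0, where 49.1% of all genes were above 0. Without the second casein array it was -0.33, with 10 below 0, where 47.4% of all genes were above 0. Against dairy the leucine median was 0.64, with 11 of 12 above 0, against 49% of all genes. Their summed signal (log2) was 6.97 and 10.3 on the leucine arrays, 8.74 and 7.06 on the dairy arrays, and 9.87 and 12.1 on the casein arrays, so that it also separated the leucine arrays from each other. Macrophage markers, 12 of 12 measured, summed to 8.66 and 8.50 on the leucine arrays, 9.39 and 9.29 on the dairy arrays, and 8.81 and 9.94 on the casein arrays. All 12 were lower with leucine than with casein, by a median of -0.57, where 49.1% of all genes were above 0. Without the second casein array 6 were above 0 and 6 below, with a median of -0.082, where 47.4% of all genes were above 0. Against dairy all 12 were lower with leucine, by a median of -0.67, where 49% of all genes were above 0. Their part in the result was not tested.

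Fibroblast markers, 8 of 8 measured, separated leucine from both other diets in their summed signal, as most of the 10 genes did in the other direction. Lum and Postn, taken singly, overlapped between the leucine and casein arrays. The 8 markers summed to 9.83 and 9.71 on the leucine arrays, 11.6 and 11.0 on the dairy arrays, and 11.1 and 10.9 on the casein arrays (log2). The leucine-minus-casein median was -0.82 with 8 of 8 below 0, where 49.1% of all genes were above 0, and -0.84 without the second casein array. Against dairy the leucine median was -1.41. Adipocyte markers, 10 of 11 measured, among them Lpl and Fabp4, which are also in the list of PPAR targets, summed to 10.2 and 10.6 on the leucine arrays, 10.0 and 9.91 on the dairy arrays, and 9.72 and 9.86 on the casein arrays. Marker by marker, 7 of these 10 were lower on leucine than on casein, with a median of -0.57, where 49.1% of all genes were above 0. Without the second casein array 8 of 10 were below 0, with a median of -0.13, where 47.4% of all genes were above 0. Against dairy the leucine median of the adipocyte markers was -0.38, with 9 of 10 below 0, where 49% of all genes were above 0. Their summed signal and their median thus went opposite ways. Endothelial markers, 7 of 8 measured, summed to 8.94 and 8.91 on the leucine arrays, 9.17 and 9.13 on the dairy arrays, and 8.88 and 8.84 on the casein arrays. The part of these cells in the differences of the 10 genes was not tested.

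**Figure D4:**
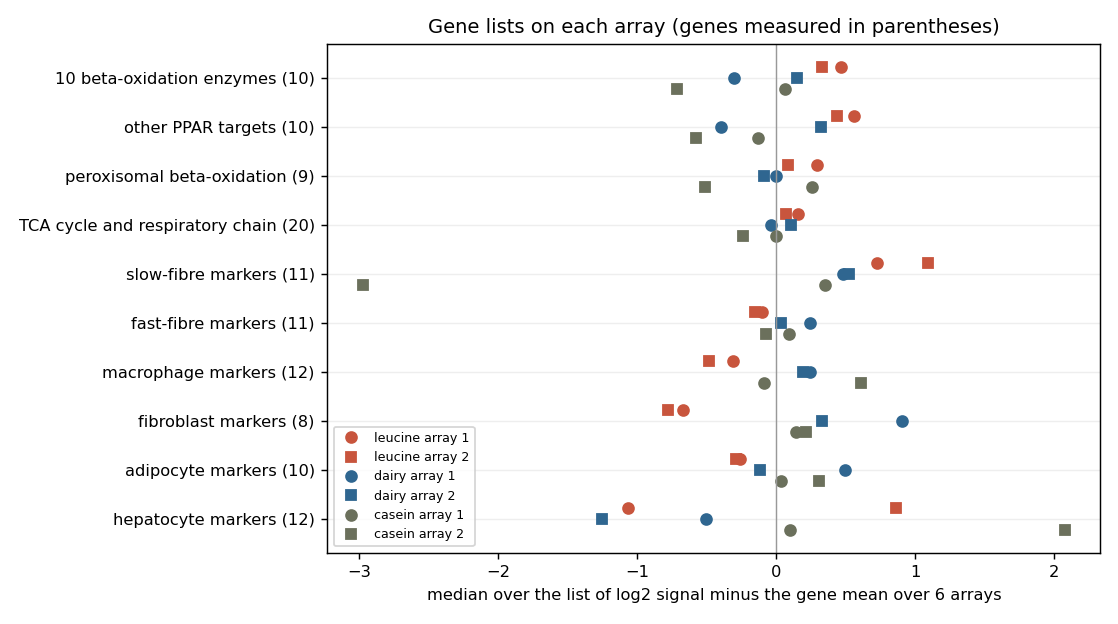
Median over the genes of a list of the log2 signal minus the gene's own mean, by array from leucine to casein, for the 10 beta-oxidation genes and related and marker lists. The slow-fibre median is -2.98 on the second casein array, where that of the 10 genes is -0.71, and fibroblast markers are lowest on the leucine arrays, at -0.67 and -0.78.

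A promoter of 300 bases, 250 before and 50 after the gene's start, was at hand from RefSeq (GRCr8) for 8 of the 10 genes, not for Cpt1b and Acadl. The nuclear receptor half-site AGGTCA, searched on both strands, was in those of Acadvl and Hadhb, and in 16.2% of 33469 rat promoters. The direct repeat of this half-site, AGGTCA followed by 1 base N and AGGTCA again, the form that PPAR receptors are known to bind, was in none of the 8 and in 0.0538% of all. The extended half-site TCAAGGTCA, the form that estrogen-related receptors bind, which contains the half-site, was in none of the 8 and in 0.433% of all. The GC box GGGCGG was in 7 of the 8, all but Acadvl, and in 33.1% of all. Only exact copies of these words were sought. The direct repeat and the extended half-site are so rare in all promoters that their absence from 8 does not set these genes apart. Known elements of these genes can lie outside such windows, and these letters alone show no binding.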

How the data were processed

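Expression was measured on 6 arrays, 2 per diet. The deposited log2 values, 1 signal per row and array, were made by the authors. The submitters' processing notes name Affymetrix Expression Console. Its version, background correction, normalization and summarization are not given in the sources used here, and probe-level signal over background was not analysed here. The number of arrays limits the precision.

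Of 29214 rows 15310 had 1 gene symbol in the platform annotation, and the row with the highest mean per symbol left 14506 genes, with no filter on dim genes. The 3 diets were fitted in 1 linear model over the 6 arrays with limma 3.58.1 in R 4.3.3 (lmFit and eBayes, 3 residual degrees of freedom). The Benjamini-Hochberg adjustment ran over all genes, with a threshold of 0.05, and the procedure was tested on simulated data. Fits without the second casein array left 2 residual degrees of freedom, and the lone casein array was assumed to vary like the other diets.

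All 10 genes are named, with any gene of the related lists, and the 5 genes most correlated with their mean. The members and lists were chosen with earlier results of these data known. Gene names of the platform were updated through RefSeq's gene table. Groups come from the sample titles. The alternatives tried were other scalings, filters, row rules and variance settings, a replicate block, and leaving out each array.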

Additional observations from a re-analysis of the deposited data

How the results depend on the processing

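Each difference was recomputed with quantile normalization, median centring, only genes above the median level, the mean of all rows of a symbol, a replicate block, trended and robust variances, and only the 2 diets compared, and again without each array. No beta-oxidation gene passed the adjusted threshold under any of these. Under the alternatives that keep both arrays of the diets compared, every one of the 10 genes kept its direction in each comparison, with 1 exception. This was Hadhb in dairy against casein, which was at -0.063 with quantile normalization. The number of the 10 with an unadjusted p under 0.05 for leucine against casein, 2 as reported, was 6 with median centring and 1 with the replicate block. It was 3 with only genes above the median level and 3 with trended and robust variances. For leucine against dairy, 1 as reported, it was 2 with only the 2 diets compared, and over any diet, 1 as reported, it was 2 with median centring and 0 with the replicate block. The replicate numbers were not taken as pairs, since the deviations of same-numbered arrays correlated at 0.179 for leucine and casein, 0.0536 for dairy and leucine and 0.0865 for dairy and casein; the block turned no direction. Median centring moved the median of all genes to 0.10 for leucine against casein and gave 1267 genes higher and 341 lower at an unadjusted p under 0.05, against 691 and 703 as reported. It gave 419 higher and 231 lower for dairy against casein, against 361 and 335, and 501 higher and 317 lower for leucine against dairy, against 327 and 500. When each array was left out in turn, the genes past the threshold numbered 0 to 1 for leucine against casein and 0 to 1 for dairy against casein, the 1 being Il6 without the first casein array, named here after its value was seen. Members with an unadjusted p under 0.05 numbered 0 to 8 for leucine against casein (8 without the first casein array, 0 without either leucine array), 0 to 3 for dairy against casein, 0 to 2 for leucine against dairy and 0 to 6 for any diet. The dairy-minus-casein median of the 10 ranged from -0.15 to 0.72. Without the second casein array Cpt1b and Acadvl turned for leucine against casein, and 9 genes for dairy against casein; Acadl, Acadm, Hadhb and Hadh also turned there without the second dairy array, and Cpt1b turned for leucine against dairy without the first dairy array. For leucine against casein Cpt1b ranged from -0.062 to 0.72 and Acadvl from -0.19 to 1.46. For dairy against casein Cpt1b ranged from -0.098 to 0.69, Cpt2 from -0.016 to 0.76, Slc25a20 from -0.14 to 0.77, Acadl from -0.19 to 0.48, Acadm from -0.16 to 0.58, Acadvl from -0.47 to 1.18, Hadha from -0.17 to 0.81, Hadhb from -0.18 to 0.26 and Hadh from -0.10 to 0.58. For leucine against dairy Cpt1b ranged from -0.008 to 0.079. The cause of these shifts was not tested.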

Other observations

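Hadha was measured by a second row that the choice of the brightest row left out. That row had log2 signals of 7.64 and 7.49 on the leucine arrays, 7.06 and 7.24 on the dairy arrays, and 7.47 and 6.30 on the casein arrays. Its leucine-minus-casein difference was 0.68 with both casein arrays and 0.093 without the second, smaller than the 0.35 of the row reported above.

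Etfdh shares its upstream side with a head-to-head neighbour, C2h4orf46, 382 bases away in RefSeq's GRCr8. C2h4orf46 had log2 signals of 5.16 and 4.87 on the leucine arrays, 4.81 and 4.67 on the dairy arrays, and 4.84 and 5.16 on the casein arrays. Its leucine-minus-casein difference was 0.014 ± 0.16, and 0.17 ± 0.17 without the second casein array, where it was not low. Chkb, the choline kinase gene next to Cpt1b, had 5.56 and 5.47 on the leucine arrays, 5.69 and 5.62 on the dairy arrays, and 5.99 and 5.23 on the casein arrays. Chkb was thus lowest on the second casein array and highest on the first, as Cpt1b was. The difference between each gene and its neighbour was not tested.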
